A study of Mus musculus with 24 samples.

Results

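The genes described here are a group of type I interferon response genes: Irf7, Stat2, Irf9, Oas2, Oasl2, Ifit1, Ifit3, Usp18 and Isg15. Each was read through its brightest probe set in the deposited expression table, over all 24 arrays and 12 kinds of mice. Of the 9 named genes, 8 had a probe set annotated to them alone, out of 12393 genes in the table that did. The only probe set of Isg15 is also annotated to Gm9706, so no level is given for Isg15. All 8 measured genes passed the filter on dim probe sets, which kept genes whose mean lay above a signal of 169, and they are the members counted below. Stat2 had 2 probe sets and the other members 1 each.

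The arrays hold lung RNA of untreated male mice aged 8 weeks, all from the Jackson Laboratory, measured on the Affymetrix Mouse 430A array. The mice were 9 BXH recombinant inbred (RI) strains (BXH2, BXH4, BXH6, BXH7, BXH8, BXH9, BXH10, BXH14 and BXH19), the hybrid BXHF1 (F1), and the progenitors C3H/HeJ (C3) and C57BL/6J (B6), with 2 arrays each. An RI strain descends by inbreeding from the cross of both progenitors, so nearly every locus carries the allele of C3 or of B6 alone. The labels count 1 tissue for each array and leave unsaid whether the arrays of a strain stand for different animals, so the p-values measure the spread between these arrays, which may be technical. The study set expression in the RI strains and the hybrid beside that of the progenitors. Values are linear signals in arbitrary units, and differences are on the scale log2(signal + 16), which understates the change of dim genes. Signals of different genes come from different probes and are not set against each other. In whole lung, more cells of a type and more RNA per cell cannot be told apart.

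Type I interferons are cytokines made when a cell senses viral or misplaced nucleic acid. They bind a receptor of Ifnar1 and Ifnar2, whose kinases Jak1 and Tyk2 activate transcription factors that include Stat2. Stat2 and Irf9 are subunits of a complex named ISGF3, which binds the interferon-stimulated response element (ISRE) of target genes. Irf7 drives further interferon production, Oas and Ifit proteins act against viral RNA, Isg15 is a ubiquitin-like protein attached to other proteins, and Usp18 removes it and dampens the receptor. In resting tissue many of these genes keep a basal level that depends in part on tonic interferon signalling.

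Promoter windows from RefSeq (assembly GRCm38.p6), reaching from 250 bases before to 50 bases after the annotated start, were available for 6 of the 8 members, Irf9 with 2 windows. The ISRE core was searched as GAAANNGAAA on both strands, and the binding motif of Stat dimers as TTCNNNGAA, which reads the same on both strands. The ISRE core lay in 3 of the 7 windows (42.9%), against 3.44% of all 32851 windows and 3.18% of 8670 windows of tested genes. The windows of Ifit1, Ifit3 and Stat2 held it, and those of Irf7, Oasl2 and Irf9 did not. The Stat dimer motif lay in 0 of the 7, against 8.3% of all windows. The windows with a match are shown because they hold the letters that ISGF3 is known to bind, and that of Irf7 because Irf7 had the widest difference in BXH4 without such letters in its window. They are written 5′ to 3′ on the strand of the gene, with matches in capitals, and a match or its absence says only whether these letters occur there.
Ifit1 (chr19:34640639-34640938, plus strand): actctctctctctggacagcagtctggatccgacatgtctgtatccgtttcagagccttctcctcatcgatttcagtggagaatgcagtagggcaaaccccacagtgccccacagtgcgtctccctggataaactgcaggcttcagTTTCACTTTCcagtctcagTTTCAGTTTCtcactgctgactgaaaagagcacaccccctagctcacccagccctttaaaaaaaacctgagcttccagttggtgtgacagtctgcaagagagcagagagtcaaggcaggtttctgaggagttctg
Ifit3 (chr19:34583279-34583578, plus strand): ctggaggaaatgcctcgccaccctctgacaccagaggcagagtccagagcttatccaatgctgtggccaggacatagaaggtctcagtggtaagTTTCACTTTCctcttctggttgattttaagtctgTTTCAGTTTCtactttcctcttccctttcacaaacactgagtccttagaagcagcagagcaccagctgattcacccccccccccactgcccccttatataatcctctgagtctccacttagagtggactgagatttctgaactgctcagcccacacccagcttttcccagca
Stat2 (chr10:128270248-128270547, plus strand): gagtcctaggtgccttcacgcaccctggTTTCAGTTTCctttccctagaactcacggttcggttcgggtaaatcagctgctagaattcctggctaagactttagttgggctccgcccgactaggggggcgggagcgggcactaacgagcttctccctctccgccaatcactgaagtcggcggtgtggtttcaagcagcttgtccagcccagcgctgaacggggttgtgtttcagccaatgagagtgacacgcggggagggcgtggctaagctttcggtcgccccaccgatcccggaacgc
Irf7 (chr7:141266375-141266674, minus strand): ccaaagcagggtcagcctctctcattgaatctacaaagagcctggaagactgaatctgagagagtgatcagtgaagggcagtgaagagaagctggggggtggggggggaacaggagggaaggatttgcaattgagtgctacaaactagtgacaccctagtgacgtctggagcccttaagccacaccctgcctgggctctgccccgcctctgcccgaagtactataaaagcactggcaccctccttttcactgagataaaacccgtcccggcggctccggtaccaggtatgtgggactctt
Ifit1 held the core at positions -104 to -95 and -85 to -76 from the start, Ifit3 at -156 to -147 and -122 to -113, and Stat2 at -222 to -213. Every match lay on the strand opposite to the gene. Ifit1 and Ifit3 belong to the Ifit cluster of chromosome 19 and each had the same pair of matched letters, TTTCACTTTC upstream of TTTCAGTTTC. Stat2 had TTTCAGTTTC alone. Oas2 and Oasl2 lie on chromosome 5, Usp18 on 6, Irf7 on 7, Stat2 on 10 and Irf9 on 14.

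In BXH4 lungs the interferon response genes gave the highest signals of the 12 strains. The mean of BXH4 ranked highest of the 12 strains for 8 of 8 members, and both BXH4 arrays lay above all 22 other arrays for 7 of them, Usp18 being the exception. Among all tested genes, 2.32% had both BXH4 arrays above the other 22. Against the mean of the other 8 RI strains, 8 of 8 members were higher in BXH4 (limma, adjusted p below 0.05), while 3.51% of the 8280 tested genes were. The median difference of the members was 0.78, against 0.01 over all tested genes. BXH4 also stood apart more widely, with 632 genes called in either direction.

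**Figure D1:**
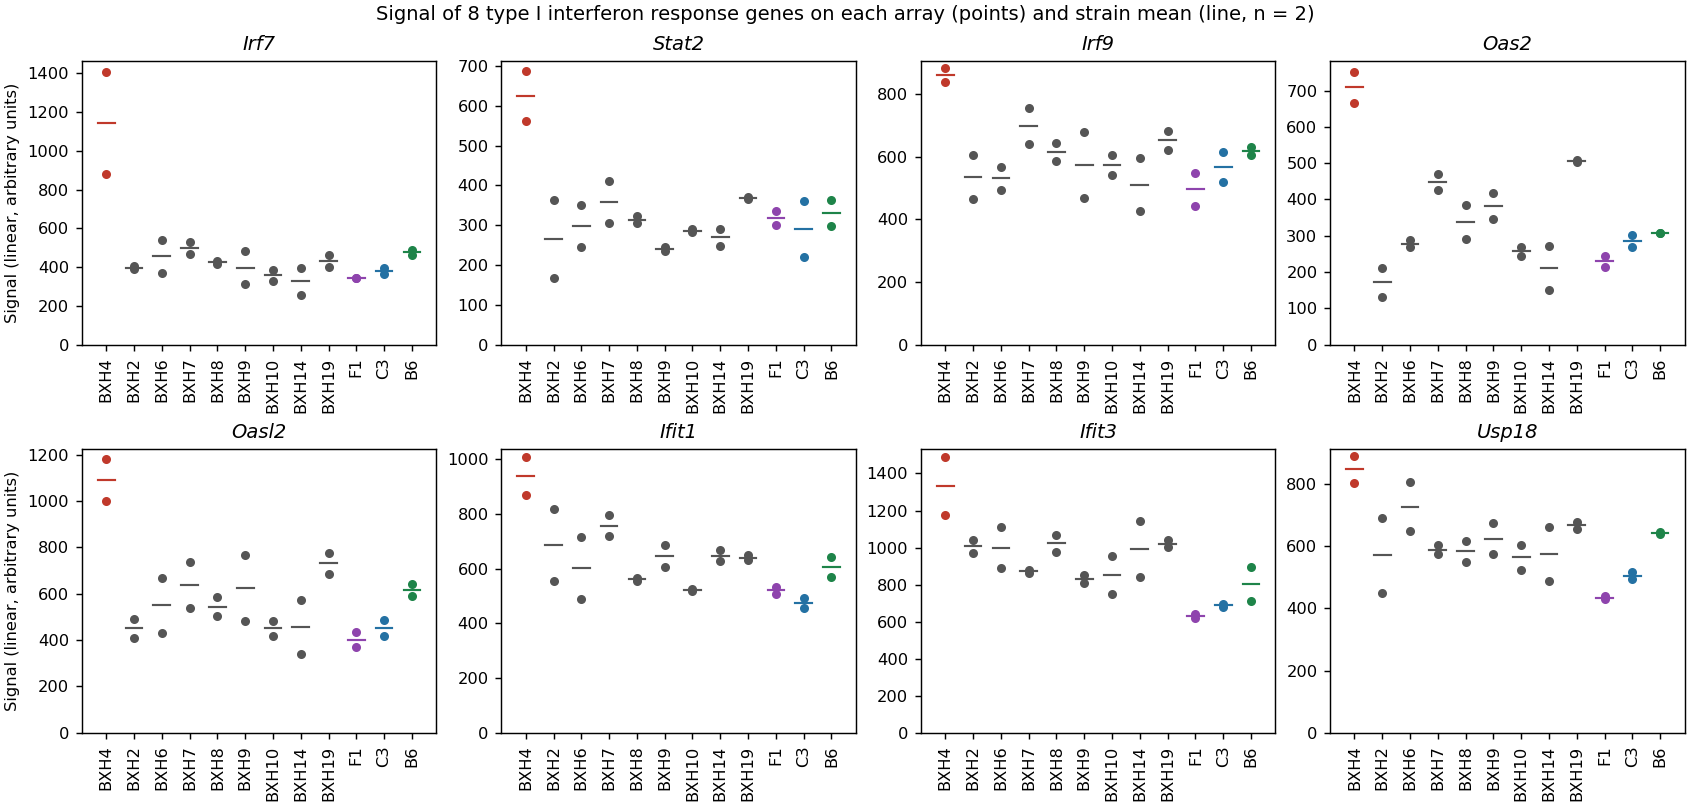
Signal (linear, arbitrary units) of the 8 measured type I interferon response genes on every array, by strain. Points are arrays, 2 for each strain, and lines are strain means. Each axis starts at 0. Both BXH4 points lie above all others in 7 panels, and in the Usp18 panel the lower BXH4 point (805.7) lies below the highest BXH6 point (807.7).

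Among the transcription factors, Irf7, the factor that amplifies interferon production, showed the widest separation. Its signal was 1405.4 and 880.5 on the BXH4 arrays, against 256.8 at the lowest, 398.1 at the median and 541.8 at the highest of the other 22 arrays. Both BXH4 arrays were high, but they also differed more from each other than the arrays of any other strain did for Irf7. The difference from the other RI strains was 1.43 (SE 0.18, adjusted p = 0.000103). Stat2, the subunit of ISGF3 that activates transcription, had 686.8 and 561.9 in BXH4, against 168.5, 302.2 and 410.6 at the lowest, median and highest of the other 22 arrays. Again the groups did not overlap, and the difference was 1.04 (SE 0.20, adjusted p = 0.00567). The other probe set of Stat2 gave 1.21 (SE 0.27, adjusted p = 0.0145) when every probe set was tested. Irf9, the DNA-binding subunit, had 883.3 and 840.3 in BXH4, against 426.6, 600.9 and 755.1 over the other 22. Its arrays were separate as well, with a difference of 0.56 (SE 0.14, adjusted p = 0.024).

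Oas2 makes short oligoadenylates that activate a nuclease which degrades RNA. It had 666.8 and 750.4 in BXH4, against 131.5, 290.1 and 508.7 at the lowest, median and highest of the other 22 arrays, and a difference of 1.18 (SE 0.17, adjusted p = 0.000558). Oasl2, a relative of Oas2, had 1181.9 and 1000.9 in BXH4, against 341.0, 498.4 and 775.6. Its difference was 0.99 (SE 0.19, adjusted p = 0.00445), and here too both BXH4 arrays were above all others.

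The Ifit genes encode proteins that bind viral RNA lacking the usual cap modification, or act beside such proteins. Ifit1 had 1010.0 and 871.6 in BXH4, against 456.3, 587.7 and 818.6 at the lowest, median and highest of the other 22 arrays. Its difference from the other RI strains was 0.57 (SE 0.13, adjusted p = 0.0142). Ifit3 had 1488.0 and 1174.6 in BXH4, against 619.9, 884.5 and 1144.3. The lower BXH4 array of each was only just above the highest other array, and the Ifit3 difference was 0.48 (SE 0.12, adjusted p = 0.0244). Usp18, the protease that takes Isg15 off proteins, had 890.2 and 805.7 in BXH4, against 431.0, 604.5 and 807.7. It was the member whose groups overlapped, and its difference was 0.47 (SE 0.13, adjusted p = 0.0393), a call that 13 of 37 alternative settings ended.

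The count in BXH4 rested on both of its arrays. Without BXH4 replicate 1 the call held for Irf7 (1.09, adjusted p = 0.014) and Oas2 (1.26, adjusted p = 0.00877), with 1.11% of tested genes called higher. Without BXH4 replicate 2 it held for Irf7, Oas2, Stat2 and Oasl2, with 0.64% of tested genes called higher. The direction of all 8 members stayed the same in both fits, in each of which the remaining BXH4 array is assumed to vary like those of other strains. Differences were 0.31 (Ifit3) to 1.26 (Oas2) without replicate 1, and 0.54 (Usp18) to 1.76 (Irf7) without replicate 2. Their SEs were 0.16 to 0.29 in both fits, against 0.12 to 0.20 with both arrays. Against the midparent, the log2 mean of C3 and B6, 7 of 8 members were higher in BXH4, with 2.39% of tested genes higher. Irf9 was the member not called, at 0.53 (SE 0.16, adjusted p = 0.0727). This comparison was chosen after seeing the data.

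Across all 12 strains, 5 of 8 members differed in a moderated F test: Oas2 (adjusted p = 0.000276), Irf7 (0.00351), Ifit3 (0.00971), Oasl2 (0.02) and Ifit1 (0.0326). The share among all tested genes was 10.5%. The call of Ifit1 was lost under 16 of 36 alternative settings, most of which left out 1 array. Usp18, Stat2 and Irf9 had adjusted p-values of 0.0654, 0.0939 and 0.147. Among the 9 RI strains alone 3 of 8 differed, Oas2, Irf7 and Oasl2, against 9.32% of tested genes. With both BXH4 arrays left out, Oas2 (adjusted p = 0.00599) and Ifit3 (adjusted p = 0.0477) differed between the 11 remaining strains, against 8.04% of tested genes. Among the 8 remaining RI strains Oas2 alone of the members did (adjusted p = 0.00294), against 7.08%.

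Oas2 was the member with the widest range among the strains other than BXH4. Its strain means were 708.6 in BXH4, 506.6 in BXH19, 446.9 in BXH7, 381.8 in BXH9, 337.5 in BXH8, 308.1 in B6, 284.6 in C3, 278.5 in BXH6, 257.0 in BXH10, 229.3 in F1, 212.4 in BXH14 and 171.9 in BXH2. The arrays of neighbouring strains in that order overlapped in 6 of 11 cases, and those of BXH4, BXH19, BXH7 and BXH9 were separate from each other. The range was 1.98 on the log2 scale, and 1.51 without BXH4. Oas2 had 212.4 and 131.5 in BXH2, and was lower there than in the other RI strains by a difference of -1.05 (SE 0.17, adjusted p = 0.00348). No other member was called in BXH2, where 0.592% of tested genes were lower. The Oas2 call in BXH2 was lost without BXH2 replicate 2 and with skeletal muscle markers as a covariate, and Oas2 was not tested among the brightest 40% of probe sets. In BXH14 it had 151.7 and 273.1, and was lower with a difference of -0.75 (SE 0.17, adjusted p = 0.0336). Again it was the sole member called, against 0.713% of tested genes. In limma 3 of 8 members in BXH14 and 2 of 8 in BXH2 had an unadjusted p under 0.05, beside 13% and 11.3% of all tested genes. The members' median difference was -0.28 in BXH14 and -0.21 in BXH2. The BXH14 call was lost without both BXH4 arrays, without BXH14 replicate 1, without BXH7 replicate 1, without BXH9 replicate 2, with no filter, and with only the RI arrays in the fit, and Oas2 was not tested among the brightest 40%. In BXH19 Oas2 had 508.7 and 504.6, a difference of 0.65 (SE 0.17, adjusted p = 0.0744), which became 0.81 (adjusted p = 0.0261) without both BXH4 arrays, where 0.761% of tested genes were called higher.

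For the other members the order below BXH4 was less distinct. Arrays of neighbouring strains overlapped in 10 of 11 cases for Oasl2, Stat2 and Irf9, in 9 for Irf7 and in 8 for Ifit1, Ifit3 and Usp18. Without BXH4 the log2 range over strain means was 0.48 for Irf9, 0.58 for Stat2, 0.62 for Irf7, 0.66 for Ifit1, 0.69 for Ifit3, 0.71 for Usp18 and 0.84 for Oasl2. BXH7 and BXH19 followed BXH4 with a median rank of 3 over the members, and F1 was lowest for 4 of them (Oasl2, Ifit3, Usp18 and Irf9). BXH6, BXH7, BXH8, BXH9, BXH10 and BXH19 each had 0 of 8 members called in limma against the other RI strains. In these strains the called shares of all tested genes were 1.94%, 1.29%, 1.39%, 2.08%, 1.47% and 1.22%, in the same order. Members with an unadjusted p under 0.05 numbered 0, 1, 0, 2, 4 and 1 in these strains, beside 12.3%, 10.7%, 10.5%, 15.7%, 12% and 11.3% of all tested genes. In BXH10, the 4 were Ifit1 (-0.36), Oasl2 (-0.42), Oas2 (-0.40) and Irf7 (-0.38). Without both BXH4 arrays, which raise the mean that BXH10 is set against, they were -0.29, -0.30, -0.26 and -0.20, and Ifit1 alone kept an unadjusted p under 0.05.

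**Figure D2:**
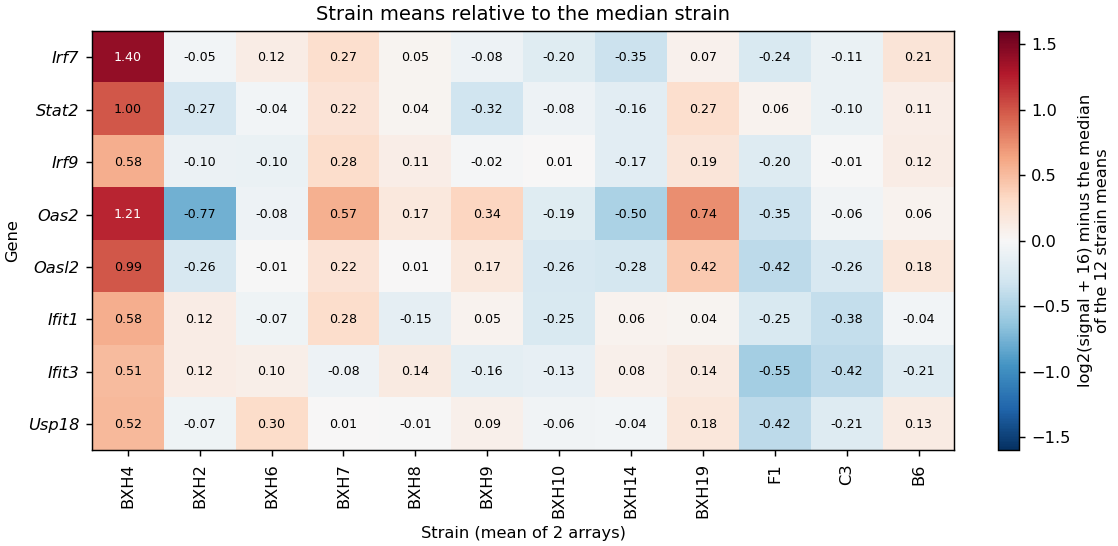
Strain means of the 8 members on the scale log2(signal + 16), each minus the median of the 12 strain means of that gene. Rows are genes, columns strains, and red is above and blue below the median strain. BXH4 is the highest cell in every row, Oas2 has the widest range (1.98), and F1 is the lowest cell of Oasl2, Ifit3, Usp18 and Irf9.

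No member was called between the progenitors. C3 minus B6 was negative for 8 of 8 members, from -0.44 for Oasl2 to -0.11 for Oas2, with a median of -0.26 against 0.005 over all tested genes. In limma 0 of 8 were called, with 0 of 8 at an unadjusted p under 0.05, while 1.67% of tested genes were called. The SEs were 0.16 to 0.27. Oasl2 had 484.9 and 415.8 in C3, against 591.5 and 641.1 in B6, and those arrays did not overlap. Usp18 had 494.2 and 517.6 in C3, against 641.1 and 645.1 in B6. Both C3 arrays lay below both B6 arrays for 6 of 8 members (Irf7, Oas2, Oasl2, Ifit1, Ifit3 and Usp18), and for 17.7% of all tested genes.

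F1 minus the midparent was negative for 7 of 8 members, with a median of -0.27 against -0.02 over all tested genes. In limma 0 of 8 were called, and 1 member, Usp18 (-0.38, SE 0.15, adjusted p = 0.545), had an unadjusted p under 0.05. The called share of all tested genes was 0.0242%. Ifit3 had 619.9 and 639.0 in F1, against 694.4 and 681.0 in C3 and 894.2 and 711.8 in B6. Its lowest array among the 8 RI strains other than BXH4 was 746.8, so every RI array lay above the F1 and C3 arrays for Ifit3. That separation was noticed in the data and was not tested, and its share among all tested genes was not worked out. In limma Ifit3 had an adjusted p of 0.711 in F1 minus the midparent and 0.845 in C3 minus B6.

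The members' levels were positively correlated over the 12 strains, and less so without BXH4. Pairs of other genes were not worked out for comparison. Over the 12 strain means, Pearson's r of the 28 pairs ran from 0.45 (Oas2 and Ifit3) to 0.92 (Oas2 and Oasl2), with a median of 0.77. Without BXH4 the median over 11 strains was 0.52, the lowest -0.01 (Ifit3 and Stat2) and the highest 0.87 (Oas2 and Oasl2). These values describe means of 2 arrays that share their scaling, and 15 of 28 pairs exceeded 0.5 without BXH4, against 27 with it. Without BXH4, Ifit3 was close to Usp18 (0.69) and Ifit1 (0.56) and far from Oas2 (0.10), while Oas2 was close to Oasl2 and Irf9 (0.82).

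In 2 of the 12 strains the members also differed in the same direction between both arrays. In BXH6, replicate 1 was higher for 8 of 8 members, with a median difference of 0.40, and in BXH14 replicate 2 was higher for 8 of 8, with a median of -0.45 for replicate 1 minus replicate 2. The median over all tested genes was -0.02 in BXH6 and -0.06 in BXH14. For Irf7 the arrays read 541.8 and 370.4 in BXH6, and 256.8 and 395.5 in BXH14. The summed signal of the NK cell markers (natural killer cells, granule-bearing lymphocytes) was 831.4 and 934.1 on replicates 1 and 2 of BXH6, and 1055.1 and 1396.8 in BXH14, so in BXH6 the array with the higher members had the lower NK sum. The T cell marker sum was 906.1 and 827.3 in BXH6, and 611.4 and 702.1 in BXH14, higher in both strains on the array with the higher members. In BXH4, BXH10 and C3, replicate 1 was higher for 7 of 8 members, with medians of 0.22, 0.18 and 0.14. In BXH9 replicate 2 was higher for 7 of 8, with a median of -0.25. On the array with the higher members, the T cell sum was lower in BXH4 (927.2 against 1388.2) and BXH10 (694.1 against 775.5). It was higher there in C3 (689.0 against 463.9) and BXH9 (1080.2 against 596.5). The NK sum was higher there in BXH4 (6324.5 against 5780.6), BXH10 (1394.3 against 1313.4), C3 (1311.3 against 1031.5) and BXH9 (2909.2 against 1931.0). The part of either cell type in these differences was not tested.

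**Figure D3:**
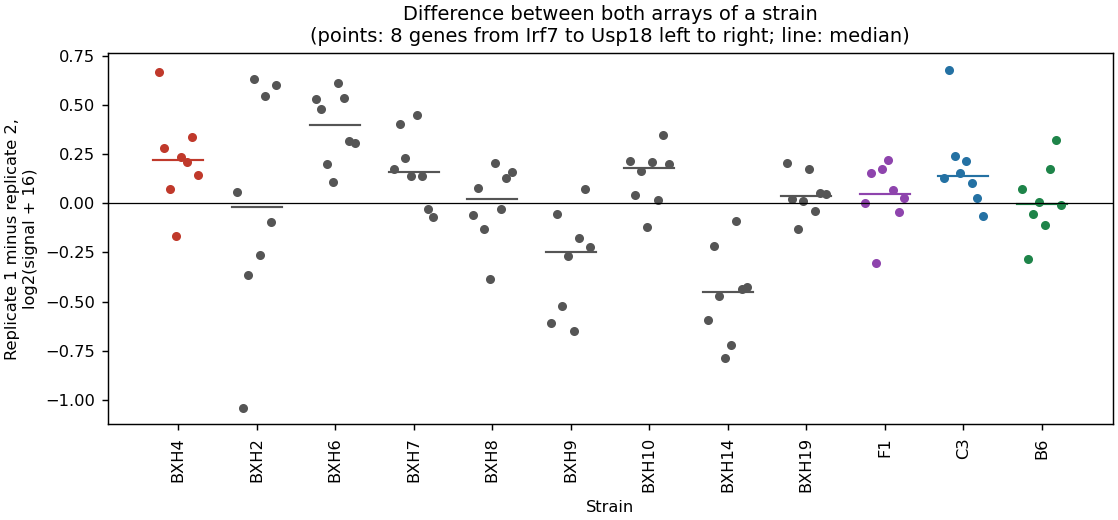
Difference between both arrays of each strain, replicate 1 minus replicate 2 on the scale log2(signal + 16). Points are the 8 members in the order of the heat map rows and lines are their medians. All points lie above 0 in BXH6 (median 0.40) and below 0 in BXH14 (median -0.45).

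Other genes of the pathway were read from lists of interferon genes, their receptor, sensors, regulatory factors and targets. Of 10 interferon genes named, 7 had a probe set of their own and 1, Ifna2, passed the filter. Ifna2 had 140.3 and 264.2 in BXH4, against 37.1, 242.4 and 456.9 at the lowest, median and highest of the other 22 arrays, and it was not called. Ifnb1, which was below the filter and not tested, had 83.1 and 116.0 in BXH4, against 67.1, 104.0 and 141.5. Both genes in BXH4 lay within the range of the other arrays. Ifng, the type II interferon, was also below the filter, with 80.9 and 79.8 in BXH4, against a median of 43.5 on the other arrays, whose range held both values. Of the receptor and kinase genes 0 of 4 were called in BXH4, and of the nucleic acid sensors 0 of 7. Of the other interferon regulatory factors 0 of 5 were called, and of the negative regulators 0 of 4. Among all tested genes 7.63% were called in either direction, so counts of 0 in such short lists do not set them apart. The list medians were 0.21, 0.16, 0.27 and -0.01, against 0.01 over all tested genes. In limma 1, 0, 2 and 1 of them had an unadjusted p under 0.05, as did 23.1% of all tested genes.

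Between the 12 strains, 2 of 7 sensors and 1 of 5 other interferon regulatory factors were called, against 10.5% of tested genes. Sting1, the adaptor of DNA sensing (adjusted p = 0.0239), Tlr3, the endosomal receptor of double-stranded RNA (0.0318), and Irf8, a factor of myeloid and dendritic cells (0.0391), differed between the 12 strains. In BXH4 their differences were 0.42, 0.04 and 0.39, and none was called.

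Of the 25 tested antiviral effectors, 3 were higher in BXH4 and 0 lower, with a list median of 0.41, while 3.51% of all tested genes were higher. In limma 15 of the 25 had an unadjusted p under 0.05, beside 23.1% of all tested genes. Lgals3bp, a secreted glycoprotein induced by interferon, had 3095.6 and 2671.8 in BXH4, against 1053.6, 1619.2 and 2059.5 at the lowest, median and highest of the other 22 arrays (difference 0.84, SE 0.12, adjusted p = 0.000384). Bst2, which tethers budding virus to the cell surface, had 704.0 and 414.9 in BXH4, against 149.6, 338.4 and 657.8 (0.66, SE 0.20, adjusted p = 0.049). Rtp4, named after its value was seen, had a difference of 0.67 (SE 0.19, adjusted p = 0.0418). The Lgals3bp arrays did not overlap and those of Bst2 did. Oas1a, a relative of Oas2 (0.34, adjusted p = 0.123), and Trim21, a cytosolic antibody receptor (0.05, adjusted p = 0.87), were not called in BXH4 although both differed over the 12 strains. In all, 7 of 25 effectors differed between the 12 strains, against 10.5% of tested genes. Parp9 (0.40, adjusted p = 0.0215) and Parp14 (0.47, adjusted p = 0.0473), of the PARP family, were higher in BXH4. They made 2 of 4 tested genes of the Isg15 conjugation and PARP list, against 3.51% of all tested genes. In that list 3 of 4 had an unadjusted p under 0.05 in limma, beside 23.1%. Parp9 was named after its value was seen. Mx1 and Mx2, the dynamin-like antiviral GTPases, were below the filter.

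Genes best known for their response to interferon gamma were also higher in BXH4, in 8 of 13 tested, with a list median of 0.69, while 3.51% of all tested genes were. Tap1, which carries peptides to class I molecules, had 1080.5 and 945.4 in BXH4, against 258.5, 560.0 and 857.3 at the lowest, median and highest of the other 22 arrays (0.92, SE 0.15, adjusted p = 0.00132). Igtp, an immunity-related GTPase, had 2942.9 and 2118.3 in BXH4, against 574.5, 867.4 and 4198.3 (1.06, SE 0.26, adjusted p = 0.0182). Gbp2, a guanylate-binding protein, had a difference of 0.69 (SE 0.16, adjusted p = 0.0163), and its relative Gbp3 0.55 (SE 0.20, adjusted p = 0.0957). Tap1 was separate from all other arrays, while Igtp was higher still on other arrays. Across the 12 strains, 12 of 13 of these genes differed, against 10.5% of tested genes. Without BXH4 replicate 1 the BXH4 call held for Tap1 and Lgals3bp among the gamma and effector lists, and without replicate 2 for Tap1, Gbp2, Lgals3bp and Bst2. The Parp calls were lost in both fits. In limma, 0 of the 63 tested genes of the 8 pathway lists were called in F1 minus the midparent or in C3 minus B6, with 4 and 8 of them at an unadjusted p under 0.05, beside 8.16% and 9.34% of all tested genes.

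**Figure D4:**
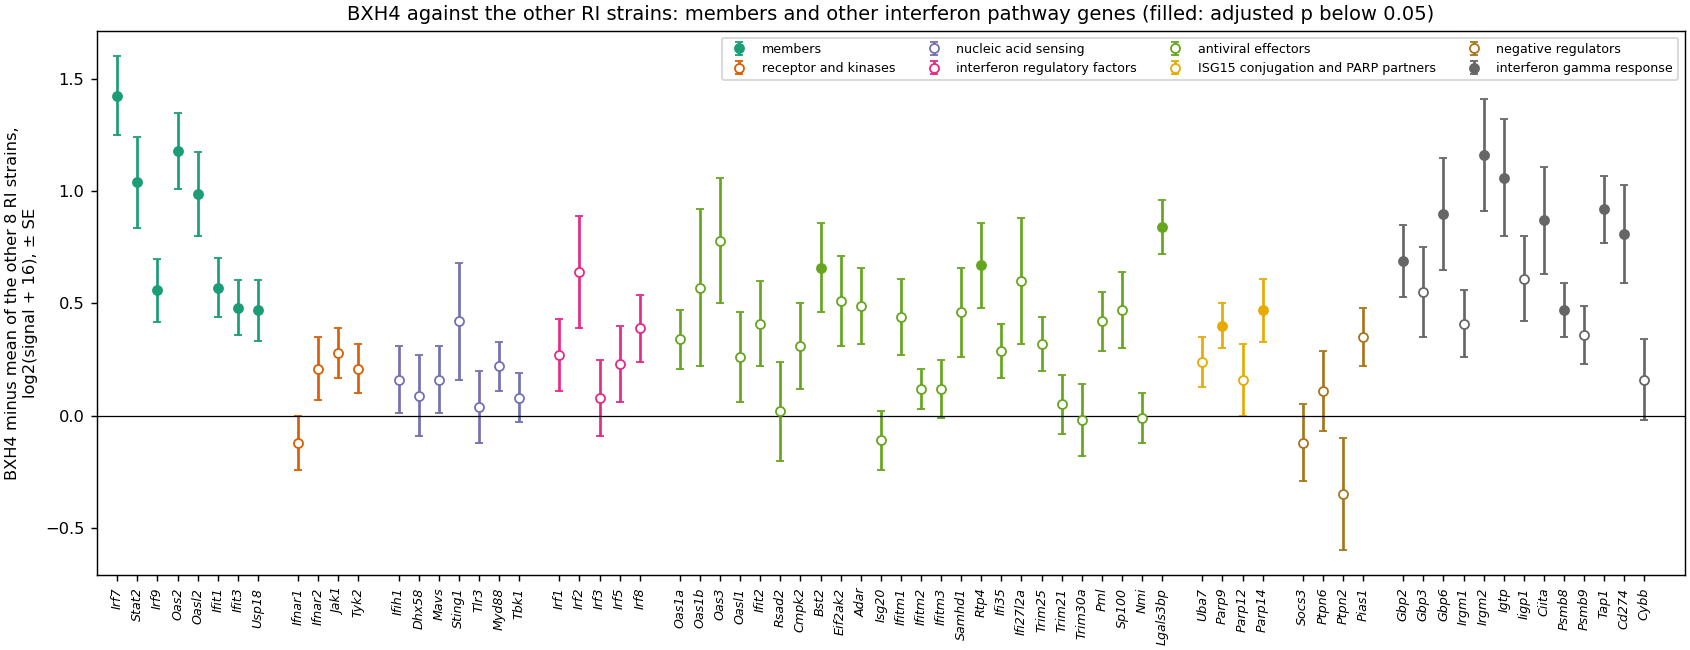
Difference of BXH4 from the mean of the other 8 RI strains, on the scale log2(signal + 16), for the 8 members and the tested genes of 7 pathway lists. Points are fitted differences, bars are ± SE, and filled points have an adjusted p below 0.05. Of all 8280 tested genes, 3.51% were called higher. All 8 members are filled, as are 3 of 25 effectors, 2 of 4 genes of the Isg15 and PARP list and 8 of 13 gamma response genes, and 0 of the receptor, sensor, regulatory factor and negative regulator lists.

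Markers of natural killer (NK) cells moved with the interferon response genes in BXH4. Of 7 NK markers 6 had a probe set, and their summed signal was 6324.5 and 5780.6 in BXH4, against 831.4, 1353.9 and 2969.9 at the lowest, median and highest of the other 22 arrays. All 4 markers that passed the filter were called higher in BXH4 in limma, while 3.51% of all tested genes were. Their differences were 2.40 for Gzma (SE 0.23, adjusted p = 5.65e-06), 1.69 for Nkg7, 1.12 for Prf1 and 0.97 for Klrd1. Gzma, Nkg7 and Prf1, which encode granule proteins, kept their call when either BXH4 array was left out. No marker was at 0 on all arrays. With the mean of these 4 markers as a covariate, a fit chosen after seeing the data, 0 of 8 members were called in BXH4 in limma, with 0 at an unadjusted p under 0.05. In the same fit 0% of the tested genes were called higher. The members' differences were then -0.15 for Usp18 to 1.08 for Stat2, with SEs of 0.32 to 0.54. In that fit the slope comes from differences between both arrays of a strain, and the part of NK cells in the members' levels was not tested.

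**Figure D5:**
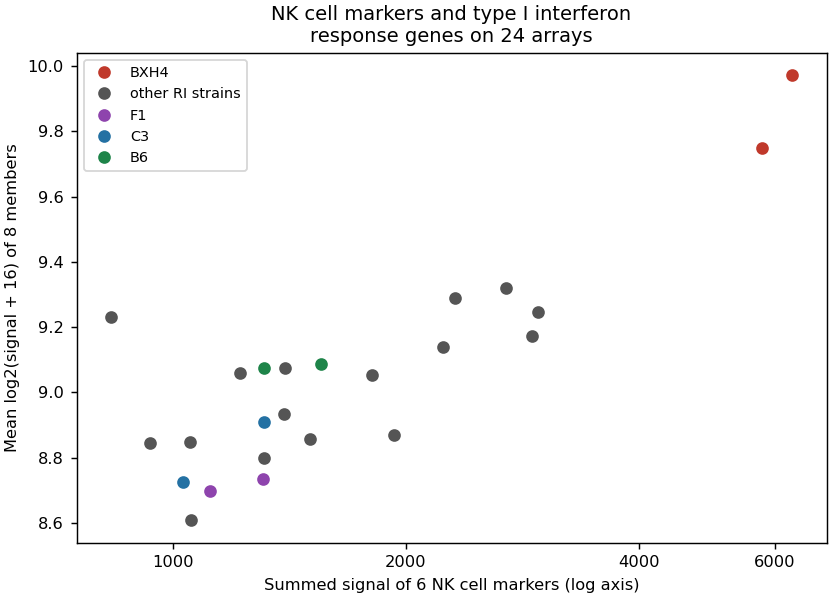
Mean log2(signal + 16) of the 8 members (vertical axis) against the summed signal of 6 NK cell markers (horizontal axis, log scale) on each of the 24 arrays. Points are arrays, coloured by BXH4, other RI strains, F1, C3 and B6. The 2 BXH4 arrays, with sums of 6324.5 and 5780.6, lie apart from the other 22, whose sums end at 2969.9.

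For each other cell type listed, the summed marker level of at least 1 BXH4 array lay within the range of the other strains. The T cell sum (5 of 7 markers with a probe set) was 927.2 and 1388.2 in BXH4, against 399.9 to 1080.2 on the other 22 arrays, and the patrolling monocyte sum (4 of 5) was 6918.8 and 5494.6, against 3577.3 to 6026.2. Plasmacytoid dendritic cells are potent makers of type I interferon, and their sum (4 of 5 markers) was 1047.4 and 1162.7 in BXH4, against 947.1 to 3363.3. Cox6a2, a gene also known from muscle, gave 745.6 and 837.0 of that sum in BXH4. Only Cox6a2 of that list passed the filter, and it was lower in BXH4 (-0.75, SE 0.17, adjusted p = 0.0119). Below the filter, Ly6d had 251.6 and 231.8 in BXH4, against a median of 151.0 on the other 22 arrays. Ccr9 had 30.4 and 81.6, against 45.2, and Klk1 19.8 and 12.3, against 22.6. The classical monocyte (3 of 4), neutrophil (5 of 6), B cell (3 of 4) and alveolar macrophage (5 of 7) sums of BXH4 lay within the range of the other arrays. Single markers, named after their values were seen, were also called in BXH4. Cd3g, the only tested T cell marker, was higher (0.68, adjusted p = 0.0382). So were the patrolling monocyte markers Itgal (0.75, adjusted p = 0.0113) and Ace (0.59, adjusted p = 0.0291). Chil3 of the classical monocyte list (0.51, adjusted p = 0.0473) and the endothelial receptor Tek (0.32, adjusted p = 0.0382) were higher too. The other tested markers of both monocyte lists had negative differences and were not called. They were Nr4a1 (-0.16) and Cx3cr1 (-0.18) of the patrolling list, and Ccr2 (-0.33) and F13a1 (-0.10) of the classical list. Krt79 of the alveolar macrophage list was lower (-0.63, adjusted p = 0.00119). It had 453.5 and 445.6 in BXH4, and its mean was 494.7 in B6 and 1640.0 in C3. The other tested markers of that list, Marco (0.29), Itgax (0.25) and Car4 (0.02), were not called. Skeletal muscle markers (6 of 6) varied widely over arrays, from 950.6 to 29083.3, and were 5668.4 and 1002.9 in BXH4. With them as a covariate 6 of 8 members were called in BXH4, against 2.08% of tested genes called higher, and Usp18 (0.48, adjusted p = 0.0661) and Irf9 (0.53, adjusted p = 0.0562) were not. Epithelial markers (6 of 6), which define lung, were bright on every array, with sums of 65389.1 to 90754.4 in BXH4 and 57227.3 to 90109.9 elsewhere. The endothelial sum (4 of 4) was 14391.9 and 13458.2 in BXH4, against 9895.8 to 13878.6. The part of these cell types in the members' levels was not tested either.

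The tested genes whose strain means were most like the mean profile of the 8 members, by Pearson's r over the 12 strain means, were Nkg7 (0.94), Klrg1 (0.93), Epsti1 (0.93), Il18rap (0.92), Itgb7 (0.92), Prf1 (0.92), Parp14 (0.91), Adar (0.89), Cln3 (0.89) and Ifit2 (0.89). Nkg7, Klrg1, Il18rap and Prf1 are genes of NK and cytotoxic T cells, while Epsti1, Parp14, Adar and Ifit2 are induced by interferon. Without BXH4 their r over 11 strains ran from 0.60 for Cln3 to 0.82 for Adar and Ifit2. The strain means share the scaling of their arrays.

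By gene, the most alike profiles were Cmtr1 (0.94) and Muc5b (0.94) for Irf7, Znfx1 (0.93) and S1pr4 (0.92) for Stat2, and Klrg1 (0.95) and Prf1 (0.92) for Irf9. Cmtr1 methylates the cap of messenger RNA, and Znfx1 is an antiviral helicase. Oasl2 was most like Parp14 (0.95) and Oas2 (0.92), Ifit1 like Taf1d (0.89) and Polg2 (0.87), Ifit3 like Brcc3 (0.92) and Polg2 (0.91), and Usp18 like Elf4 (0.92) and Mdp1 (0.89). Oas2 was most like Alox5ap (0.95), the membrane protein that presents arachidonic acid for leukotriene synthesis, followed by Oasl2. Alox5ap lies on chromosome 5, as do Oas2 and Oasl2, and its r with Oas2 was 0.95 also without BXH4. That was the highest of these pairs without BXH4, and the lowest was 0.73 for Irf7 and Muc5b. Alox5ap itself was not called in BXH4 (0.29, SE 0.11, adjusted p = 0.107).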

How the data were processed

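The authors' deposited table holds 1 linear intensity (signal) for each of 22690 probe sets and each of the 24 arrays. Lung RNA was isolated with Trizol and converted to biotin-labelled cRNA by T7 amplification, per the labels' protocols. Software and scaling of the signals were not given in the sources used here. On every array the mean signal, trimmed by 2% at each end, was 500.11 to 500.13, and array medians were 239.0 to 269.6, so no further scaling was applied. Precision is limited by the 2 arrays of each strain.

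Gene names came from the platform annotation: 20380 probe sets had 1 gene symbol, 691 several, 1555 none, and 64 were controls. Each gene was read through its brightest probe set, and the 8280 genes among the brightest 60% were tested. A model with 12 strain groups was fitted to log2(signal + 16) with limma 3.58.1 in R 4.3.3 (lmFit, eBayes with a trend; 12 residual degrees of freedom) and tested on simulated data. P-values were adjusted by Benjamini-Hochberg over all tested genes, and below 0.05 counted as called. Comparisons were C3 minus B6, F1 minus midparent, each RI strain minus the other 8, and F tests over strains. Tests of contrasts were two-sided.

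The members and all gene and marker lists were chosen with earlier results of these data known. Named beyond the members are up to 4 genes of each pathway list with the smallest F test p among those called, the 10 genes most like the mean profile of the members (8, since Isg15 could not be used) and the 2 most like each member. Alternatives were offsets of 1 and 64, median centring, quantile normalization, the brightest 40%, no filter, every probe set or the mean of probe sets, no trend, a replicate block, a muscle covariate, only the arrays compared, and leaving out arrays. Comparisons of BXH4 with the midparent or all other strains and an NK cell covariate were added after seeing the data.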

Additional observations from a re-analysis of the deposited data

How the results depend on the processing

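The direction of each tested member in BXH4 was kept under every alternative tried, except for Usp18 with the NK cell covariate (-0.151). The number of members differing between the 12 strains was 5, became 2 without both BXH4 arrays, and ran from 2 to 7 when 1 array was left out. Among the 9 RI strains it was 3, became 1 without both BXH4 arrays, and ran from 1 to 5. The 8 members called in BXH4 became 0 with the NK cell covariate, a fit in which 0% of the tested genes were called higher. The count also fell when either BXH4 array was left out. Differences were then 0.31 (Ifit3) to 1.26 (Oas2) without replicate 1, and 0.54 (Usp18) to 1.76 (Irf7) without replicate 2. For BXH2 the count of 1 became 0 with the brightest 40%, which left Oas2 and Stat2 untested, and with the muscle covariate. For BXH14 it became 0 with no filter, the brightest 40%, only the arrays compared, and without both BXH4 arrays. For BXH19 the count of 0 became 1 (Oas2) with quantile normalization and without both BXH4 arrays. With 1 array left out, these 3 counts ran from 0 to 1, and the counts of C3, F1 and the other RI strains were 0. Stat2 in C3 minus B6 was 0.128 without C3 replicate 2 and -0.549 without C3 replicate 1. In F1 minus the midparent, Ifit1 was 0.013 with median-centred arrays and ran from -0.082 to 0.005 with 1 array left out. Stat2 there was -0.015 with the mean of probe sets and ran from -0.114 to 0.225. The cause of these changes was not tested. With the replicate number as a block, the counts were 5 between the 12 strains, 4 between the RI strains and 8 in BXH4. They were 1 each in BXH2 and BXH14, and 0 elsewhere. For this block, and for the changed counts of BXH2 and BXH14, the share of all tested genes called was not worked out. These counts therefore do not separate the members from the tested genes at large. The pairing was checked over 66 pairs of strains: same-numbered arrays deviated together with a correlation over 0.1 in 22, from -0.299 to 0.344, so the numbers do not pair the arrays. With 2 arrays a strain, small differences between strains are not detectable.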
